A study of Homo sapiens with 8 samples.

Results

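The genes described here are the developmental transcription factors outside the HOX clusters that HEK293T cells transcribe. They were taken as every gene of the deposited normalized count table whose GENCODE symbol consists of SOX, PAX, TBX, GATA, LHX, DLX, IRX, EMX, OTX, MSX, MEIS, EN or GLI followed by a number, is SIX2 or one of its numbered paralogs, or begins with NKX and a digit. This gave 79 of the 19118 genes in that table, in 15 families, and all 79 are protein coding. The raw count table of 57500 genes holds 104 such symbols. The other 25, among them GATA1, PAX8, SOX1, SOX10, SOX17, TBX5 and NKX2-6, had at most 80 counts summed over the libraries, which is the limit of the normalized table, and 7 of them had 0 counts.

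RNAseq was measured in 8 libraries of HEK293T, a human line of embryonic kidney origin with the large T antigen of SV40. In 4 of them the cells had received 100 µM DZNep for 48 h (DZNep replicates 1 to 4), and in the other 4 they had received the vehicle (Control replicates 1 to 4). DZNep (3-deazaneplanocin A) resembles adenosine and blocks the hydrolase AHCY, so that S-adenosylhomocysteine accumulates and methylation reactions are held back. The labels name no engineered allele in either group, and all libraries come from a single cell line, so the replicates are repeats of a culture and not of a donor. The comparison of the groups asks which transcripts change with the compound.

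These genes encode sequence-specific DNA-binding proteins that lay out the body axes, the neural plate, the limbs and the organs of the embryo. SOX proteins bind through an HMG box, TBX proteins through a T-box, GATA and GLI proteins through zinc fingers, and PAX proteins through a paired domain, while the remaining families are homeodomain proteins, of which LHX proteins also have LIM domains and SIX2 and its paralogs a second conserved domain. In most differentiated cells many of them are silent, and their promoters are textbook targets of Polycomb proteins, which mark them with methylated histone H3 lysine 27. In the embryonic kidney PAX2, SIX2, LHX1 and GATA3 are among the best known members.

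Library totals ranged from 25043058 to 44902779 counts, and the 79 genes held between 0.163% and 0.259% of them. Normalized counts are counts divided by a size factor for each library. On this scale 70 of the 79 genes had a mean of at least 100 over the 8 libraries and 3 (PAX1, PAX5 and TBX21) lay under 20. Mitochondrial genes took 7.76, 3.02, 3.16 and 13.7% of counts in Control replicates 1 to 4 and 7.04, 4.25, 4.44 and 10.1% in DZNep replicates 1 to 4, so that replicates 1 and 4 of both groups stood above replicates 2 and 3. All 6 HEK293T markers were expressed, with a summed level of 33539.9 to 54712 normalized counts in Control and 42471 to 51604.5 in DZNep. Of these KRT8, a keratin of simple epithelia, was called higher (1 of 6), with means of 361 in Control and 2001 in DZNep (log2 fold change 2.44, SE 0.28, adjusted p = 0.000133). Summed blood markers reached 69.0 to 123 in Control and 93.4 to 542 in DZNep, where LYZ had 450.2 in replicate 2 and 18.3 to 30.8 in the 7 other libraries. CD3E was at 0 in every Control library and at 8.16, 16.9, 15.5 and 40.5 in DZNep replicates 1 to 4, and it was not tested. HBB was at 0 in all 8 libraries, and none of the 3 blood markers tested was called. Summed endothelial markers reached 151 to 184 in Control and 174 to 322 in DZNep. VWF and CDH5 (2 of 3 tested) were called higher, from means of 2.81 and 0.771 in Control to 103 and 16.1 in DZNep. Both passed the count filter only through their DZNep libraries, so the direction of these calls was largely fixed in advance. PECAM1, also tested, was not called, with means of 163 in Control and 143 in DZNep. TIE1 was not tested, with means of 1.10 and 2.31. Hepatocyte markers had 6.17 to 26.9 and 22.5 to 57.4 with none of 4 tested, and fibroblast markers 3288 to 6374.5 and 3633 to 7406, with LUM (1 of 4) called higher. The part of these markers in the values below was not tested. In such bulk RNA, fewer cells that transcribe a gene and less RNA per cell cannot be told apart.

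All 79 genes were tested, together with every other gene that passed the count filter, with edgeR's quasi-likelihood test. A gene was called when its Benjamini-Hochberg adjusted p-value over the 19171 genes was under 0.05 and its log2 fold change, DZNep over Control, was beyond 1 in either direction. Of the developmental transcription factors 7 (8.86%) were called higher with DZNep and 12 (15.2%) lower, while 10.6% and 13.5% of all genes tested were, so their shares lay near the background. SOX3, TBX4, DLX3, TBX6, TBX21, MSX2 and PAX9 rose, and SOX8, EMX1, GLI1, GATA4, SOX21, GLI4, LHX1, MSX1, GLI2, LHX4, LHX2 and EN2 fell. By the adjusted p-value alone, 20 of the 79 were higher and 22 of the 79 lower. Over all genes 3656 and 4171 of 19171 were (19.1% and 21.8%), so both shares of the 79 lay above those of all genes. All DZNep values exceeded all Control values in 21 genes (26.6%) and fell short of them in 22 (27.8%), against 19.5% and 19.4% of all genes, and the groups overlapped for 36. The median log2 fold change of the 79 genes was −0.08, beside −0.03 over all genes tested.

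**Figure D1:**
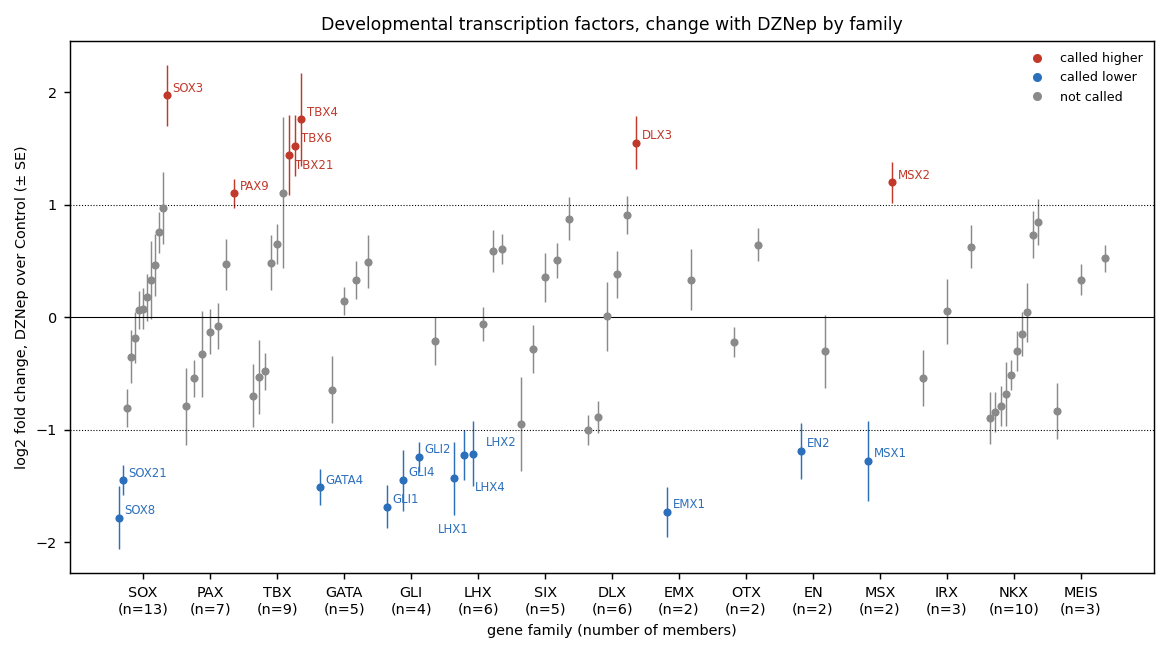
Log2 fold change, DZNep over Control, of each of the 79 developmental transcription factors (y axis, with its standard error as a bar) by family (x axis, with the number of genes). Dotted lines mark a log2 fold change of 1 in either direction. SOX3 is the highest point at 1.97 and SOX8 the lowest at −1.78, and the NKX, IRX, OTX and MEIS families and SIX2 and its paralogs have no called gene.

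When the replicate number entered the fit as a block, 9 of the 79 were called higher and 12 lower. Over all genes 2243 and 2736 of 19171 were (11.7% and 14.3%). The 19 genes called without the block were all among those called with it. The additional ones were SOX4 and TBX20. By the adjusted p-value alone the block gave 30 of the 79 higher and 27 of the 79 lower. Over all genes it gave 5528 and 5786 of 19171 (28.8% and 30.2%), so both shares of the 79 lay above those of all genes. When each library was left out in turn, 7 of the 7 higher and 9 of the 12 lower genes were called every time. The genes were called from these same libraries, so this is no separate support. The share of all genes called in these fits is not given here. EN2, LHX2 and MSX1 were not called without Control replicate 4, where their log2 fold changes were −0.98, −0.9991 and −0.92. Conversely, SOX4 was called higher without Control replicate 1, Control replicate 4 or DZNep replicate 2, DLX4 without DZNep replicate 2 and TBX20 without Control replicate 2. SIX3 was called lower without Control replicate 2, NKX2-3 without Control replicate 3, and DLX1 in 5 of the 8 fits. Where no block value is given below, the block did not change the call by both thresholds, and a gene said not to pass did not pass in the fit without the block. There were 15 genes that passed the adjusted p-value with the block only, namely TBX20 and, short of the fold threshold, DLX6, EMX2, GATA2, GATA3, GATA5, IRX3, MEIS2, NKX2-8, PAX3, SIX3, SIX4, SOX18, TBX1 and TBX18.

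**Figure D2:**
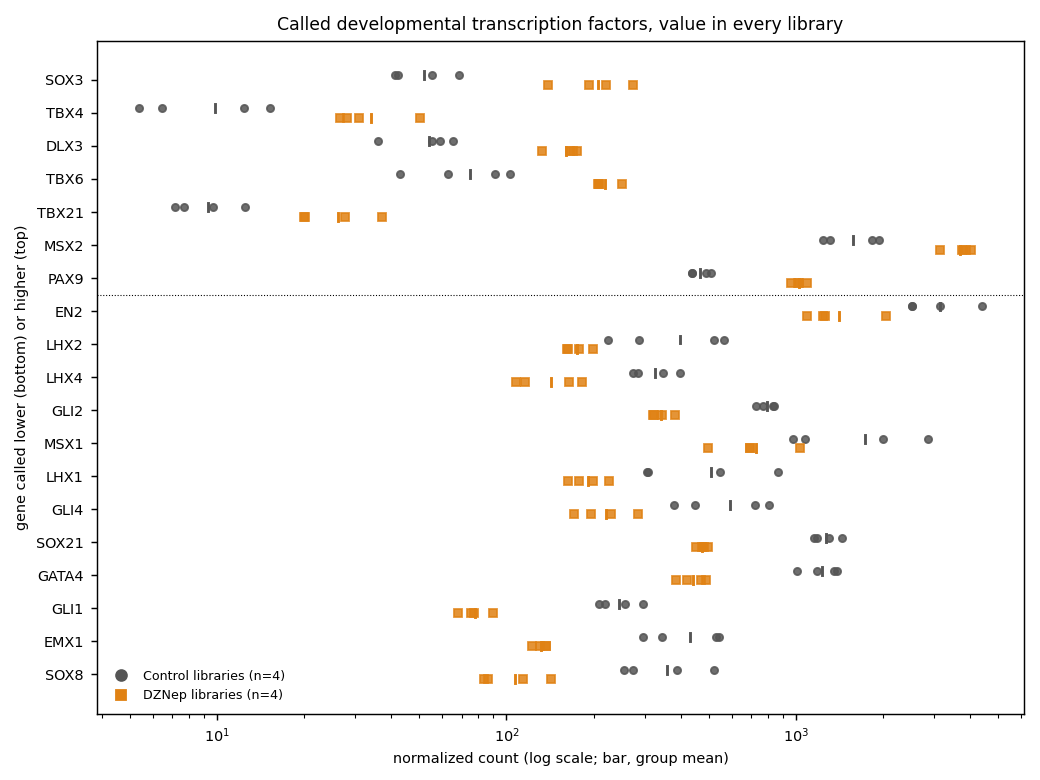
Normalized counts of the 19 called genes in each of the 8 libraries (x axis, log scale), 1 row for each gene, with Control and DZNep libraries in different colours. The groups do not overlap in 18 of the 19 rows, but the genes were called on these same values, so this is not separate evidence. Over all genes tested, every DZNep library lay above every Control library in 19.5% and below in 19.4%. The exception is MSX1, whose highest DZNep library reached 1035 and whose lowest Control library had 978.

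The SOX family had 13 genes, 1 called higher and 2 lower. SOX3 (chrX:140502985-140505069, GRCh38), a SoxB1 factor of neural progenitors and the pituitary, had 55.5, 41.1, 42.1 and 68.8 normalized counts in the Control libraries and 221, 139, 193 and 273 in the DZNep libraries. Every DZNep library lay above every Control library, by 139 against 68.8 at the closest, and the change was the largest rise among the 79 genes (log2 fold change 1.97, SE 0.27, adjusted p = 0.000334). SOX2, the SoxB1 factor of pluripotent and neural stem cells, did not pass the test (log2 fold change −0.18, SE 0.22, adjusted p = 0.551). SOX21 (chr13:94709622-94712545), a SoxB2 factor that represses targets of the SoxB1 group, had 1189, 1448, 1301 and 1157 normalized counts in the Control libraries and 473, 480.0, 497 and 451 in the DZNep libraries. The groups were far apart, and the spread within each was small (log2 fold change −1.45, SE 0.13, adjusted p = 3.92e-05). SOX8 (chr16:981770-986979), a SoxE factor of the gonad, glia and neural crest, had 388, 255, 274 and 520.0 normalized counts in the Control libraries and 83.4, 86.2, 114 and 143 in the DZNep libraries. It showed the largest fall of the 79 genes (log2 fold change −1.78, SE 0.28, adjusted p = 0.000687). Its SoxE relative SOX9, which directs cartilage and testis formation, had a smaller rise with an adjusted p-value that passed and a fold change that did not (log2 fold change 0.75, SE 0.18, adjusted p = 0.00813).

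SOX4, a SoxC factor of progenitor survival and differentiation, had the highest level of the 79 genes per kilobase of exon, with 2792 normalized counts per kilobase in the Control mean, followed by NKX2-5 with 1218 and SOX12 with 1132. The Control ranges of NKX2-5 and SOX12 overlapped. SOX4 had 16682, 7689, 8679 and 21328 normalized counts in the Control libraries and 25199.9, 22616, 32242 and 28607 in the DZNep libraries. Every DZNep library was above every Control library, and the Control libraries themselves spanned from 7689 to 21328. Its fold change fell just short of the call (log2 fold change 0.97, SE 0.32, adjusted p = 0.0325), and it was called with the replicate block (log2 fold change 1.09, adjusted p = 0.00027). In replicates 2 and 3 alone its log2 fold change was 1.71 (adjusted p = 2.28e-05), and in replicates 1 and 4 alone it was 0.52 (adjusted p = 0.0756). SOX12, the other SoxC gene measured, was lower by the adjusted p-value only (log2 fold change −0.81, SE 0.17, adjusted p = 0.00356). SOX5, SOX6 and SOX13, the SoxD genes, lay between 0.06 and 0.18. SOX7 and SOX18, SoxF genes of the endothelium, were at −0.35 and 0.47, and SOX15 was at 0.33, and none of these 6 passed either threshold.

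The promoters of some called genes are shown with their CG dinucleotides, which are the sites of DNA methylation in human cells. No DNA methylation was analysed here, and its part in the changes was not tested. SOX8, EMX1, GLI1 and GATA4 fell more than the lower genes shown, but no RefSeq promoter was matched for them. The sequences are the 250 bases before the start of the gene, taken from RefSeq (GRCh38.p14) and written in the direction of transcription, for the 2 higher and 2 lower genes with the largest fold changes among the RefSeq promoters used here. Capitals mark CG dinucleotides. The SOX3 promoter is at chrX:140505070-140505319 on the minus strand, with 17 CG, the TBX4 promoter at chr17:61456238-61456487 on the plus strand, with 15 CG, the SOX21 promoter at chr13:94712546-94712795 on the minus strand, with 11 CG and the MSX1 promoter at chr4:4859415-4859664 on the plus strand, with 24 CG. The RefSeq start of TBX4 lies inside the gene as GENCODE draws it. The same holds for others among the promoters summarized below, such as SOX6, PAX6, OTX2, GATA2, LHX2 and LHX6. The summary values mix such starts with starts at the edge of the gene.
SOX3: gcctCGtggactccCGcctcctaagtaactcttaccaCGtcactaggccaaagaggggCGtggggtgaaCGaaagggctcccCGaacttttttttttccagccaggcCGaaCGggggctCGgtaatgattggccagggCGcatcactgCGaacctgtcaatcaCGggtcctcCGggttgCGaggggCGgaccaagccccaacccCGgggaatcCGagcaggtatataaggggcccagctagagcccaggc
TBX4: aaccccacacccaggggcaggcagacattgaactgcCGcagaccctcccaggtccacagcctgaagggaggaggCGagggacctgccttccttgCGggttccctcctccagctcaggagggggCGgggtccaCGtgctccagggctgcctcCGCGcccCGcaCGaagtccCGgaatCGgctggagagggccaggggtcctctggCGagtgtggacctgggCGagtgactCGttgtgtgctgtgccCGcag
SOX21: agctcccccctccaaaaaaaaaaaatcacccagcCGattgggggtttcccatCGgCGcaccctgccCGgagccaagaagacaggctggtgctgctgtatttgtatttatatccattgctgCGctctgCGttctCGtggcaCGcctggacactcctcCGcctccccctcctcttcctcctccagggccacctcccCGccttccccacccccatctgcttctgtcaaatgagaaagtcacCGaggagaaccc
MSX1: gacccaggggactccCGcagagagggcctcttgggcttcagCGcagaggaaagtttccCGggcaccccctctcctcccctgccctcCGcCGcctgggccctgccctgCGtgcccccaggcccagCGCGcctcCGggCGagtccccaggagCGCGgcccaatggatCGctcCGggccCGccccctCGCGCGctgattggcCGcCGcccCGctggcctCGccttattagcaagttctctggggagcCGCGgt

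RefSeq entries were matched for 52 of the 79 genes. Their promoters had a median of 17 CG in 250 bases, a GC content of 63.2% and a ratio of observed to expected CG of 0.718, beside 20, 64.4% and 0.798 over 12923 promoters of genes tested. By call, the 6 matched lower genes had a median of 25.5 CG and a GC content of 72.2%, the 6 matched higher genes 17 and 62.4%, and the 40 that were not called 16.5 and 62.8%, a difference that was not tested. Short motifs were searched on both strands. CCAAT stood in 53.8% of the 52 promoters and in 34.1% of all, GGGCGG in 48.1% and 63.9%, TATAAA in 7.69% and 6.30%, and TAATTA, a core that many homeodomains bind, in 7.69% and 2.14%. GACCACCCA, the GLI consensus, stood in 0 of the 52 and in 0.155% of all. Of the 4 promoters shown, SOX21 holds TATAAA, SOX3, SOX21 and MSX1 hold CCAAT, and SOX3, TBX4 and MSX1 hold GGGCGG.

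The TBX family had 9 genes, of which 3 were called higher and none lower, beside 1 that passed the adjusted p-value alone in each direction. TBX6 (chr16:30085793-30091924), a factor of the presomitic mesoderm, had 91.0, 42.9, 62.7 and 103 normalized counts in the Control libraries and 207, 209, 208 and 251 in the DZNep libraries. It rose (log2 fold change 1.52, SE 0.27, adjusted p = 0.00144), with 3 DZNep libraries close together and replicate 4 above them. TBX4 (chr17:61452404-61485110), a hindlimb and lung factor, had 12.3, 5.36, 15.2 and 6.45 normalized counts in the Control libraries and 30.8, 26.6, 50.1 and 28.1 in the DZNep libraries. Its level was low, the groups did not overlap, and it rose (log2 fold change 1.76, SE 0.41, adjusted p = 0.00671). TBX21 (chr17:47733236-47746122), known as T-bet and as the factor of T helper type 1 cells, had 7.71, 12.5, 7.17 and 9.67 normalized counts in the Control libraries and 19.95, 20.1, 27.6 and 37.1 in the DZNep libraries. It was also low and rose (log2 fold change 1.44, SE 0.35, adjusted p = 0.00829). Within replicates 2 and 3 alone TBX21 had a log2 fold change of 1.24 (adjusted p = 0.065), and TBX4 and TBX21 were not tested when at least 10 reads were required in every library. Both entered the set through their DZNep counts, since their Control libraries alone fall short of the limit of the normalized table.

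TBX3, a repressor in limb, heart and breast development, had the highest mean count of the TBX genes over all 8 libraries, although TBX1 was above it in the Control mean (2966 against 2059), with 1858, 2173, 2513 and 1692 normalized counts in the Control libraries and 2792, 4025, 3475 and 2887 in the DZNep libraries. The groups did not overlap, but the change was below the fold threshold (log2 fold change 0.65, SE 0.18, adjusted p = 0.0144). TBX20, a heart factor, had 37.0, 202, 98.5 and 10.7 normalized counts in the Control libraries and 178, 304, 200.4 and 90.0 in the DZNep libraries, and both groups varied widely. It was not called (log2 fold change 1.11, SE 0.67, adjusted p = 0.217), although within each replicate number the DZNep library was above the Control library, and with the replicate block it was called (log2 fold change 1.46, adjusted p = 0.000677). TBX2, a repressor of senescence genes, was lower by the adjusted p-value alone (log2 fold change −0.48, SE 0.17, adjusted p = 0.0397). TBX1, a factor of the pharyngeal arches, was at −0.70 (adjusted p = 0.0721), TBX19, of pituitary corticotrophs, at −0.53, and TBX18, of the heart's sinus node and the ureter, at 0.48, and none of these 3 passed without the block. With the replicate block TBX1 (log2 fold change −0.68, adjusted p = 0.000229) and TBX18 (log2 fold change 0.48, adjusted p = 0.00191) passed the adjusted p-value alone.

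The PAX family had 7 genes and 1 call. PAX9 (chr14:36657568-36679362), a factor of teeth, thymus and the vertebral column, had 439, 488, 509.7 and 436 normalized counts in the Control libraries and 1023, 1019, 1090.0 and 966 in the DZNep libraries. The groups were well separated and the gene rose (log2 fold change 1.10, SE 0.13, adjusted p = 0.000144). PAX6, the factor of eye and pancreas development, had the highest mean count of the PAX genes, with 2789, 1755, 1887 and 3083 normalized counts in the Control libraries and 2303, 2101, 1983 and 2474 in the DZNep libraries. Its groups overlapped and it did not pass (log2 fold change −0.13, SE 0.20, adjusted p = 0.636). PAX2, which marks the kidney lineage, was lower by the adjusted p-value alone (log2 fold change −0.54, SE 0.16, adjusted p = 0.0228). PAX3 and PAX7, of muscle progenitors and the neural crest, were at 0.47 and −0.08, and PAX1, of the vertebral column, and PAX5, of B cells, had at most 22.4 normalized counts in any library.

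The 5 GATA genes had 1 call. GATA4, a factor of heart, gonad and endoderm, had 1355, 1007, 1189 and 1386 normalized counts in the Control libraries and 422, 491, 384 and 469 in the DZNep libraries. All DZNep libraries lay far below the Control libraries, and it fell (log2 fold change −1.51, SE 0.16, adjusted p = 7.25e-05). Its relative GATA6 did not pass (log2 fold change 0.14, SE 0.12, adjusted p = 0.389). GATA3, which acts in T cells, trophoblast and the kidney duct, had the highest mean count of the family, with 2234, 1157, 1232 and 2174 normalized counts in the Control libraries and 2586, 2238, 2154 and 2775 in the DZNep libraries. The difference was not called (log2 fold change 0.49, SE 0.24, adjusted p = 0.121), and in the Control libraries replicates 1 and 4 were near the DZNep values. GATA2, of blood progenitors, was at 0.33, and GATA5, of endoderm and heart, at −0.64. Among 4 partners of GATA proteins 1 was called in each direction. ZFPM1, the cofactor FOG1, fell from 472 ± 195 in the Control libraries to 88.0 ± 35.4 in the DZNep libraries (SD, n = 4; log2 fold change −2.45, SE 0.38, adjusted p = 0.000626). LYL1, a basic helix-loop-helix partner in blood cells, rose at a low level, from 9.74 ± 1.57 in the Control libraries to 23.3 ± 8.93 in the DZNep libraries (SD, n = 4; log2 fold change 1.22, SE 0.38, adjusted p = 0.0251). It was not called without Control replicate 1, Control replicate 3, DZNep replicate 1 or DZNep replicate 4. LYL1 passed the count filter through its DZNep libraries, and its Control libraries alone would have fallen short. The cofactor ZFPM2 and the blood factor TAL1 did not pass.

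Of the 4 GLI genes 3 were called lower. GLI proteins are the nuclear effectors of hedgehog signalling. In that pathway hedgehog ligands bind PTCH1, which releases SMO, and GLI2 and GLI3 are then no longer held back by SUFU, while GLI1 is itself a target of the pathway. GLI1 (chr12:57459785-57472268) had 256, 209, 297 and 219 normalized counts in the Control libraries and 68.0, 77.3, 89.8 and 75.4 in the DZNep libraries, and every DZNep library was far below the Control libraries (log2 fold change −1.68, SE 0.19, adjusted p = 0.000121). GLI2 (chr2:120735623-120992653), the main activator, had 731, 837, 840.2 and 770.3 normalized counts in the Control libraries and 320.1, 344, 323 and 384 in the DZNep libraries. It fell with little spread in either group (log2 fold change −1.24, SE 0.13, adjusted p = 8.9e-05). GLI3, which acts mainly as a repressor, had the highest mean count of the family, with 1181, 1359, 1388 and 1067 normalized counts in the Control libraries and 1129, 1305, 1295 and 665 in the DZNep libraries. Its groups overlapped and it did not pass (log2 fold change −0.21, SE 0.21, adjusted p = 0.466). GLI4, a zinc finger gene that shares the name and is not among the classical hedgehog effectors, had 721, 379, 449.7 and 810.1 normalized counts in the Control libraries and 196, 172, 231 and 285 in the DZNep libraries, and it fell (log2 fold change −1.45, SE 0.27, adjusted p = 0.00197).

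Of 17 hedgehog pathway genes 14 were tested, and the ligands SHH, IHH and DHH were not. Among the 14, 2 were called higher and none lower, with a median log2 fold change of 0.04. SUFU, the inhibitor that binds GLI proteins, had 822, 1557, 1150.2 and 1031 normalized counts in the Control libraries and 2582, 2562, 2506 and 2004 in the DZNep libraries. It rose (log2 fold change 1.05, SE 0.20, adjusted p = 0.00208). GAS1, a coreceptor for hedgehog ligands, had 1039, 1499, 1260.4 and 1208 normalized counts in the Control libraries and 2679, 2389.6, 3053 and 2463 in the DZNep libraries, and it rose likewise (log2 fold change 1.05, SE 0.16, adjusted p = 0.000505). Neither was called without Control replicate 1, where the log2 fold changes were 0.92 for SUFU and 0.96 for GAS1, nor was GAS1 without DZNep replicate 3. PTCH1 and HHIP, receptor and antagonist and both textbook targets of the pathway, did not pass (log2 fold change −0.36, SE 0.31, adjusted p = 0.384 for PTCH1 and log2 fold change 0.15, SE 0.14, adjusted p = 0.419 for HHIP). SMO, the transducer, was at −0.02 (adjusted p = 0.891). HHAT, which attaches palmitate to the ligands, and GPR161, a ciliary inhibitor of the pathway, were lower by the adjusted p-value alone (−0.93 and −0.58), and DISP1, which releases the ligands, was higher by it (0.53). With the replicate block 2 of the 14 were called higher as before.

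The 6 LHX genes, LIM-homeodomain factors, had 3 calls, all lower. LHX1 (chr17:36936785-36944612), needed for the head organizer and the kidney, had 547, 307, 309 and 866 normalized counts in the Control libraries and 199, 163, 178 and 226 in the DZNep libraries. LHX2 (chr9:124001670-124033301), of the eye and the forebrain cortex, had 519.5, 225, 288 and 565 normalized counts in the Control libraries and 178, 163, 162 and 199 in the DZNep libraries. In both genes Control replicates 1 and 4 were above replicates 2 and 3, and all Control libraries were above the DZNep libraries. Both fell, LHX1 with a log2 fold change of −1.43, SE 0.33, adjusted p = 0.00593 and LHX2 with a log2 fold change of −1.21, SE 0.29, adjusted p = 0.00729. LHX4 (chr1:180230264-180278984), of the pituitary and motor neurons, had 274, 397, 348 and 286 normalized counts in the Control libraries and 108, 182, 164 and 116 in the DZNep libraries. In this gene Control replicates 2 and 3 were the higher ones, and it fell as well (log2 fold change −1.22, SE 0.22, adjusted p = 0.00163). Within replicates 2 and 3 alone LHX1 had a log2 fold change of −0.89 (adjusted p = 0.00704) and LHX2 of −0.69 (adjusted p = 0.0358), neither beyond the fold threshold.

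LHX8, of cholinergic neurons and teeth, had the highest mean count of the LHX genes over all 8 libraries, with 361, 371, 452 and 334 normalized counts in the Control libraries and 352, 354, 414 and 364 in the DZNep libraries. The groups overlapped (log2 fold change −0.06, SE 0.15, adjusted p = 0.775). In the Control mean LHX1 and LHX2 lay above it, with 507 and 399 against 379.7 normalized counts, and in the DZNep mean LHX6 did, with 433 against 371. LHX6, of cortical interneurons, and LHX9, of the gonad, were higher by the adjusted p-value alone (0.61 and 0.58). Of 10 proteins that bind LIM domains or their adaptors 1 was called. LMO1, a LIM-only protein, fell from 42.9 ± 10.6 in the Control libraries to 17.6 ± 5.46 in the DZNep libraries (SD, n = 4; log2 fold change −1.32, SE 0.33, adjusted p = 0.00937). LDB1, the adaptor through which LIM-homeodomain proteins form complexes, was at 0.40 (adjusted p = 0.342), and RLIM, the ligase that removes LDB1, at 0.70 (adjusted p = 0.0634).

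The 5 sine oculis homeobox genes measured had no call. SIX5, a neighbour of the myotonic dystrophy kinase gene, was higher by the adjusted p-value alone (log2 fold change 0.87, SE 0.19, adjusted p = 0.0048), and SIX2, which maintains nephron progenitors, did not pass (log2 fold change −0.28, SE 0.21, adjusted p = 0.321). SIX3, of the anterior forebrain, was at −0.95 with a wide spread (adjusted p = 0.0938), and SIX4 at 0.35. These proteins act with EYA coactivators and DACH corepressors, of which 6 were measured. EYA2, a coactivator with phosphatase activity, had 1113, 769, 949 and 907 normalized counts in the Control libraries and 300.2, 255, 286 and 349.9 in the DZNep libraries, and it fell (log2 fold change −1.68, SE 0.17, adjusted p = 5.83e-05). EYA1 was higher by the adjusted p-value alone (0.84), and EYA3 and EYA4 were at −0.16 and −0.09 without passing. DACH1 was just over the fold threshold with overlapping groups (log2 fold change 1.00, SE 0.29, adjusted p = 0.0188) and was not called without Control replicate 1, Control replicate 4 or DZNep replicate 1, 2 or 3, while DACH2 was lower by the adjusted p-value alone (−0.79).

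The DLX family had 6 genes in 3 pairs of neighbours. DLX3 (chr17:49990005-49995224), of placenta, skin and teeth, had 55.5, 65.2, 35.8 and 59.1 normalized counts in the Control libraries and 176, 133, 169 and 165 in the DZNep libraries. All DZNep libraries were well above the Control libraries, and it rose (log2 fold change 1.55, SE 0.23, adjusted p = 0.000544). DLX2, of forebrain interneurons and the branchial arches, had the highest mean count of the family over all 8 libraries, although DLX4 was above it in the DZNep mean (778 against 703), with 1399.8, 1372, 1318 and 1011 normalized counts in the Control libraries and 700.1, 678, 733 and 702 in the DZNep libraries. It was lower by the adjusted p-value alone (log2 fold change −0.88, SE 0.14, adjusted p = 0.000819), as was DLX1 (log2 fold change −0.9998, SE 0.13, adjusted p = 0.000301), which missed the fold threshold in the fourth decimal and passed it in 5 of the 8 leave-one-out fits. DLX4 was higher by the adjusted p-value alone (log2 fold change 0.91, SE 0.17, adjusted p = 0.00183), and DLX5 and DLX6, of limb and jaw, did not pass (0.01 and 0.38).

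The EMX, OTX and EN genes pattern the forebrain, the head and the border of midbrain and hindbrain. EMX1 (chr2:72916260-72936071), of the cerebral cortex, had 544, 296, 346 and 532 normalized counts in the Control libraries and 122, 130.5, 136 and 137 in the DZNep libraries. Every DZNep library was below every Control library, and it fell (log2 fold change −1.73, SE 0.22, adjusted p = 0.000239). EMX2, of the cortex and the urogenital tract, had 623, 304, 379.8 and 723 normalized counts in the Control libraries and 622, 591, 561 and 829 in the DZNep libraries. It did not pass (log2 fold change 0.33, SE 0.27, adjusted p = 0.357). OTX2, of the forebrain and eye, had 541, 389, 458 and 396 normalized counts in the Control libraries and 706, 681, 707 and 747 in the DZNep libraries, an increase by the adjusted p-value alone (log2 fold change 0.64, SE 0.15, adjusted p = 0.006). OTX1 was at −0.22 (adjusted p = 0.215). EN2 (chr7:155458129-155464831) had 3149, 2516, 2514 and 4410.2 normalized counts in the Control libraries and 1265, 1243, 1089 and 2054 in the DZNep libraries. It fell, with Control replicate 4 the highest of all (log2 fold change −1.19, SE 0.25, adjusted p = 0.00377). EN1 did not pass (log2 fold change −0.30, SE 0.32, adjusted p = 0.486).

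MSX1 and MSX2, craniofacial and limb factors that respond to bone morphogenetic proteins, were called in opposite directions. MSX1 (chr4:4859665-4863936) had 1995, 978, 1074 and 2875 normalized counts in the Control libraries and 692, 496, 694 and 1035 in the DZNep libraries. Its groups overlapped, since DZNep replicate 4 was above Control replicate 2, and it fell (log2 fold change −1.28, SE 0.36, adjusted p = 0.0158). Within every replicate number the DZNep library was the lower one. MSX2 (chr5:174724582-174730896) had 1941, 1239, 1317 and 1831 normalized counts in the Control libraries and 3869.9, 3765, 3141 and 4033 in the DZNep libraries. Its groups were well apart and it rose (log2 fold change 1.20, SE 0.18, adjusted p = 0.00058). In the Control mean MSX1 had 816 and MSX2 711 normalized counts per kilobase of exon, and in the DZNep mean they had 344 and 1665.

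None of the 10 NKX genes passed both thresholds, and 2 were higher and 4 lower by the adjusted p-value alone. NKX2-5, the cardiac factor, had the highest mean count of them, with 2823, 1932, 2093 and 3133 normalized counts in the Control libraries and 2175, 2164, 1965 and 2887 in the DZNep libraries. The groups overlapped (log2 fold change −0.15, SE 0.19, adjusted p = 0.58). NKX2-2, of the ventral neural tube and pancreatic islets, was among the higher ones (0.85). NKX2-3, of gut and spleen, NKX3-2, of cartilage, NKX1-2 and NKX6-1, of beta cells and motor neurons, were the lower ones, between −0.90 and −0.51. NKX2-1, the factor of thyroid and lung, was at 0.04, NKX2-4 at −0.30 and NKX2-8 at −0.68, without passing. Groucho corepressors are recruited by NKX, EN and PAX proteins and by SIX2 and its paralogs. Of 6 measured, TLE1 rose from 2406 ± 608 in the Control libraries to 5066 ± 1095 in the DZNep libraries (SD, n = 4; log2 fold change 1.05, SE 0.22, adjusted p = 0.004) and was not called without Control replicate 1, Control replicate 4 or DZNep replicate 2. TLE3 and TLE4 were higher by the adjusted p-value alone (0.54 and 0.74), and TLE2, TLE5 and TLE6 did not pass.

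The 3 IRX genes had no call. IRX3, of neural, heart and nephron patterning, had the highest mean count of them, with 1096, 738, 782 and 1482 normalized counts in the Control libraries and 667, 548, 729.8 and 931 in the DZNep libraries (log2 fold change −0.54, SE 0.25, adjusted p = 0.11). Its groups overlapped, while IRX6 was higher by the adjusted p-value alone (0.63) and IRX5 was at 0.05. The MEIS genes encode TALE homeodomain proteins that bind DNA together with PBX and HOX proteins, and none of the 3 was called. MEIS2 had the highest mean count of them over all 8 libraries, although MEIS3 was just above it in the Control mean (1331 against 1324), with 1419.8, 1153, 1229 and 1495 normalized counts in the Control libraries and 1742, 1803, 1600.4 and 1657 in the DZNep libraries. All DZNep libraries were higher, by a small margin (log2 fold change 0.33, SE 0.14, adjusted p = 0.0748). MEIS1 was higher and MEIS3 lower by the adjusted p-value alone (0.52 and −0.83). Among 6 TALE partners the PREP genes moved apart. PKNOX1 rose from 889 ± 168 in the Control libraries to 1889 ± 268 in the DZNep libraries (SD, n = 4; log2 fold change 1.06, SE 0.17, adjusted p = 0.000878), and PKNOX2 fell from 789 ± 109 in the Control libraries to 235 ± 35.2 in the DZNep libraries (SD, n = 4; log2 fold change −1.77, SE 0.17, adjusted p = 5.37e-05). Without Control replicate 1, Control replicate 4 or DZNep replicate 2, PKNOX1 was not called. PBX2, PBX3 and PBX4 did not pass.

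Over all partner lists 46 of 49 genes were tested. Of the 46, 6 were called higher and 4 lower, beside 2041 and 2589 of all 19171 genes (10.6% and 13.5%). The median log2 fold change of the 46 was 0.05, beside −0.03 over all genes. The 6 higher partners lay between 1.00 and 1.22. None of them was called without Control replicate 1 by edgeR, where 11 partners were higher at an unadjusted p-value under 0.05, and 3 were called without Control replicate 4 or without DZNep replicate 2. The 4 lower partners were called in all 8 leave-one-out fits, which share their libraries with the calls and are no separate support.

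**Figure D3:**
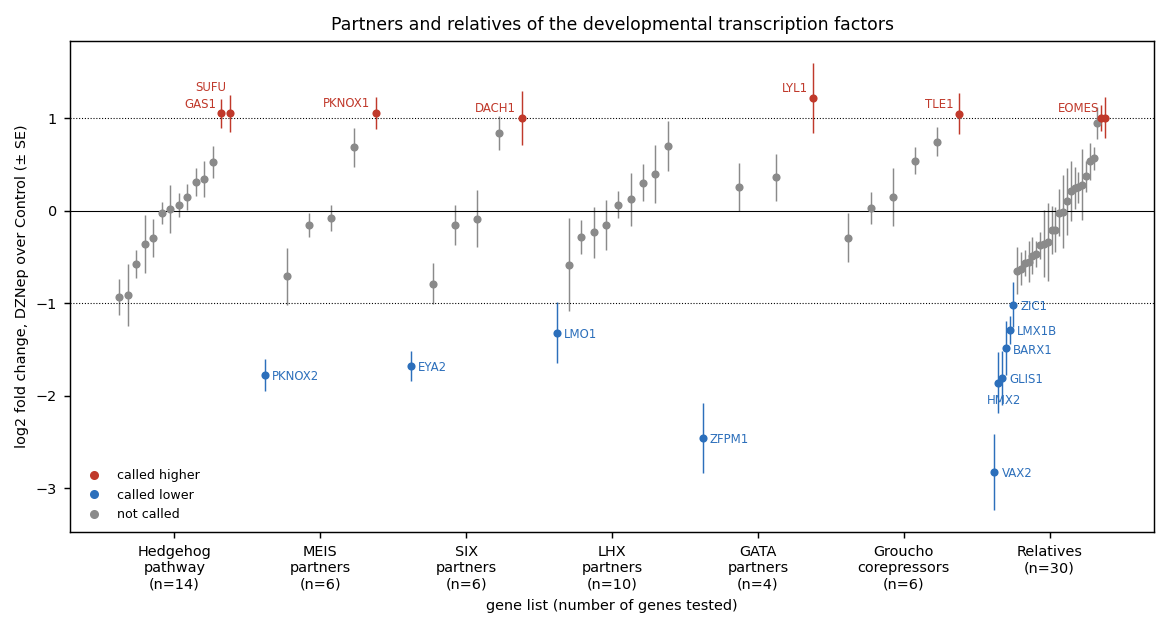
Log2 fold change, DZNep over Control, with its standard error, for each tested gene of 6 partner lists and of the list of relatives (x axis, with the number tested). Dotted lines mark a log2 fold change of 1 in either direction. The called higher genes sit close to the line, up to 1.22 for LYL1, while the lower ones reach −2.45 for ZFPM1 and −2.82 for VAX2.

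Relatives that carry the same kind of domain under another name were 36, of which 30 were tested. Of the 30, 2 were called higher and 6 lower, beside 2041 and 2589 of all 19171 genes (10.6% and 13.5%). The median log2 fold change of the 30 was −0.27, beside −0.03 over all genes. VAX2, of the ventral eye, fell from 246 ± 107 in the Control libraries to 34.9 ± 14.1 in the DZNep libraries (SD, n = 4; log2 fold change −2.82, SE 0.41, adjusted p = 0.000447). HMX2, of the inner ear, fell at a low level, from 26.8 ± 6.85 in the Control libraries to 7.43 ± 1.43 in the DZNep libraries (SD, n = 4; log2 fold change −1.86, SE 0.33, adjusted p = 0.00153). GLIS1, a relative of the GLI genes, fell from 118 ± 28.9 in the Control libraries to 33.9 ± 9.52 in the DZNep libraries (SD, n = 4; log2 fold change −1.80, SE 0.29, adjusted p = 0.000815). BARX1, of stomach and teeth, LMX1B, of limb and kidney podocytes, and ZIC1, of the cerebellum, were the other lower ones (−1.49, −1.29 and −1.02), and ZIC1 was not called without Control replicate 4, DZNep replicate 1 or DZNep replicate 4. EOMES, a T-box factor of mesoderm and T cells, was called higher at the fold threshold (1.01), and it was called only in the leave-one-out fits without Control replicate 2 or DZNep replicate 4. None of the relatives was called higher by edgeR without Control replicate 1, Control replicate 4 or DZNep replicate 2, and without Control replicate 1 there were 5 higher at an unadjusted p-value under 0.05.

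Several of the 79 genes lie side by side, and 11 pairs were within 250000 bases of each other, 8 of them of the same family. Of these 8 pairs, 5 had log2 fold changes of the same sign. Among the 5 is the pair of DLX5 and DLX6, where DLX5 was at 0.01 and its sign turned in some alternatives. No rate for neighbouring genes in general was measured, so the count cannot be set against a background. DLX1 and DLX2 were both lower and DLX3 and DLX4 both higher by the adjusted p-value. TBX2 and TBX4, 42938 bases apart, went in opposite directions (−0.48 and 1.76, each past the adjusted p-value threshold). PAX9, with a rise of 1.10, lies beside NKX2-8 (−0.68) and NKX2-1 (0.04), neither of which passed. The higher NKX2-2 lies beside NKX2-4 (−0.30), which did not pass.

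An exon overlapped an exon of a gene on the other strand for 26 of the 79 genes, and for 13 of them the partner had at least 20 normalized counts. The strand setting of the counting is not given in the sources used here, so reads from such pairs may not be separable. The partners named here were chosen after their values were seen. DLX6-AS1, an antisense RNA of the DLX5 and DLX6 locus, had 296, 319.6, 288 and 322 normalized counts in the Control libraries and 39.0, 32.2, 32.0 and 27.0 in the DZNep libraries. It fell (log2 fold change −3.25, SE 0.19, adjusted p = 4.62e-06), while DLX6 did not pass (log2 fold change 0.38, SE 0.21, adjusted p = 0.17). EMX2OS, antisense to EMX2, went from 583 ± 99.9 in the Control libraries to 160.1 ± 37.4 in the DZNep libraries (SD, n = 4; log2 fold change −1.89, SE 0.21, adjusted p = 0.000117), with EMX2 at 0.33. GNB1L, a protein-coding gene that overlaps TBX1, went from 1109 ± 296 in the Control libraries to 223 ± 77.0 in the DZNep libraries (SD, n = 4; log2 fold change −2.35, SE 0.27, adjusted p = 0.000127), with TBX1 at −0.70. GATA2-AS1 did not pass (log2 fold change −0.49, SE 0.20, adjusted p = 0.0753). MEIS1-AS3 rose at a low level, from 13.4 ± 8.82 in the Control libraries to 38.1 ± 11.2 in the DZNep libraries (SD, n = 4; log2 fold change 1.43, SE 0.48, adjusted p = 0.0348). Of the called genes GLI1, LHX4 and PAX9 had such a partner, and ARHGAP9, ACBD6 and SLC25A21 did not pass the test. ACBD6 stood far above LHX4, with means of 3268 in Control and 3737 in DZNep.

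**Figure D4:**
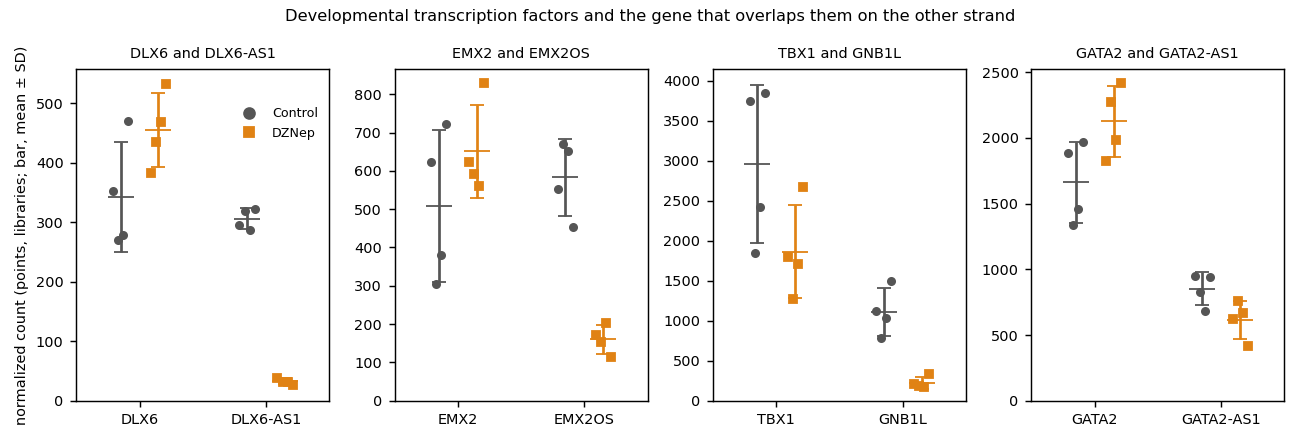
Normalized counts (y axis, from 0) of 4 developmental transcription factors and of the gene that overlaps each on the other strand, with 1 point for each library and the group mean ± SD as bars. DLX6-AS1, EMX2OS and GNB1L drop to 32.5, 160.1 and 223 in the DZNep mean, while the groups overlap for DLX6, EMX2, TBX1 and GATA2.

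The libraries of 1 group were not alike for these genes. Control replicates 1 and 4 both lay above Control replicates 2 and 3 for 47 of the 79 genes (59.5%), against 35.6% of all genes tested, and both below for 17 (21.5%), against 35.2%. These are the replicates with the higher mitochondrial share. The median log2 ratio of the mean of Control replicates 1 and 4 to that of replicates 2 and 3 was 0.33 for the 79 genes and 0.03 over all genes, and by call it was 0.67 for the 12 lower, 0.18 for the 7 higher and 0.32 for the 60 that were not called. The longest transcripts of the 79 genes had a median GC content of 56.6%, against 48.2% over all genes. The part of the mitochondrial share and of the GC content in these values was not tested.

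**Figure D5:**
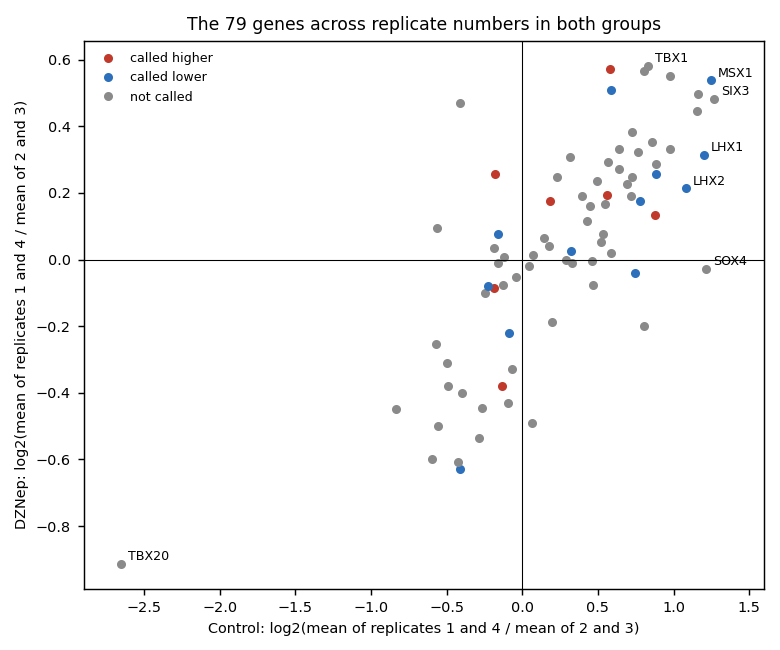
Log2 ratio of the mean of replicates 1 and 4 to the mean of replicates 2 and 3 in the Control libraries (x axis) and in the DZNep libraries (y axis), with 1 point for each of the 79 genes coloured by its call. Most points lie to the right of 0, and SOX4, LHX1, LHX2 and MSX1 are among those far to the right, while TBX20 is far to the left.

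With replicates 1 and 4 alone 10 of the 79 genes were called higher and 15 lower. Of all 19987 genes tested there, 2440 and 3227 were (12.2% and 16.1%). With replicates 2 and 3 alone 8 of the 79 were called higher and 9 lower. Of all 19425 genes tested there, 2311 and 2346 were (11.9% and 12.1%). All 19 called genes kept their direction in both. They were called from these same libraries, and in most of them the groups did not overlap. Their direction in a subset was thus largely fixed in advance and is no separate support. EMX1 had a log2 fold change of −2.03 (adjusted p = 7.16e-05) in replicates 1 and 4 and −1.30 (adjusted p = 0.000848) in replicates 2 and 3, and SOX8 had −2.002 (adjusted p = 0.000313) and −1.44 (adjusted p = 0.000886). MSX1 went from −1.49 (adjusted p = 0.000565) to −0.82 (adjusted p = 0.0041) and LHX2 from −1.51 (adjusted p = 0.000429) to −0.69 (adjusted p = 0.0358), so that both were beyond the fold threshold in the first pair of replicates and not in the second. The median log2 fold change of the 79 genes was −0.21 and 0.11 in the 2 subsets.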

How the data were processed

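RNAseq of 8 HEK293T libraries was analysed, 4 Control and 4 DZNep, grouped by the treatment in the labels. Reads were paired, 150 bases long, and per the labels trimmed with Trimmomatic 0.36, mapped to GRCh38 with STAR 2.5.2b and counted with featureCounts (Subread 1.5.2). The annotation release and the strand setting are not given in the sources used here. The medium is RPMI in the paper's methods and DMEM in the labels. The authors deposited a table of raw counts and a table of normalized counts, a signal that was checked to equal the count over a library-wide size factor, for genes with more than 80 summed counts.

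Differential expression was tested with edgeR's quasi-likelihood method (edgeR 4.0.16, R 4.3.3) on the raw counts, with TMM, filterByExpr and Benjamini-Hochberg adjustment over 19171 genes, and the thresholds were an adjusted p-value under 0.05 and a log2 fold change beyond 1. The standard error (SE) of a log2 fold change was its size divided by the root of the F statistic. Alternatives were DESeq2 1.42.0, limma 3.58.1, glmTreat, other scalings and filters, the replicate block, and leaving out each library. Scripts were tested on simulated data.

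Replicate numbers are shared by the groups, and deviations from the group means correlated between same-numbered libraries with 0.139, 0.492, 0.429 and 0.677, all over 0.1. The numbers were treated as pairs only in the fit with the replicate block. The main fit, which gave the calls, SE and adjusted p-values unless the block is named, took no account of them. Differently numbered libraries correlated too, Control replicate 1 with DZNep replicate 4 at 0.534, Control 2 with DZNep 3 at 0.399 and Control 3 with DZNep 2 at 0.342. Every pair of libraries within a group differed beyond sampling noise, the smallest chi-square per degree of freedom being 26.9, and every library was kept as its own replicate. Depth was 25043058 to 44902779 counts. A count of 0 allows a share of up to 6.68e-06% to 1.20e-05% of a library (3 counts), which covers counting error only.

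The 79 genes and the gene lists were chosen with earlier results of these data known. Named with full values were called genes with a mean of at least 20 normalized counts in the higher group (up to 12 in each direction by fold change), the gene with the highest mean count in each family, and up to 3 called genes per list and direction. Other genes were named with single values. The results of 5 genes are counted in the totals and not reported here. Gene coordinates are from GENCODE's GRCh38 annotation, which may differ from the release used for counting, and promoters are from RefSeq.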

Additional observations from a re-analysis of the deposited data

Results flagged for a closer look

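TBX6 in the DZNep libraries was singled out because 1 library stood apart from the others. It had 207, 209 and 208 normalized counts in DZNep replicates 1 to 3 and 251 in replicate 4, so that the gap of the highest library to the next was 0.959 of the whole range, above the critical value of Dixon's test for 4 samples. This was 1 of 64 groups of libraries looked at, and chance gives about 1 in 20. All 4 values were above the highest Control value of 103, and TBX6 was called higher in all 8 fits that left out a library. TBX6 was called from these same libraries, so neither is separate support.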

How the results depend on the processing

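The 19 called genes kept their direction in every alternative that tested them, and 11 of the 79, none of them called, turned in at least 1. The alternatives use the same libraries from which the 19 were called, so the kept direction is no separate support. LHX8 turned to a log2 fold change of 0.0102 with library sizes alone and 0.0618 with replicates 1 and 4 alone, and ranged from −0.13 to 0.0306 when each library was left out. PAX6 turned to 0.13 with replicates 2 and 3 alone and ranged from −0.25 to 0.0139 when each library was left out, and NKX2-5 turned to 0.00041 with replicates 2 and 3 alone. SOX2 and EN1 turned to 0.11 with replicates 2 and 3 alone, and DLX5, IRX5, NKX2-1, PAX7, SOX6 and SOX13, within 0.08 of 0, turned in others. The cause was not tested. With glmTreat, a test of change beyond the fold threshold, 2 of the 79 genes were higher and 5 lower, 0 partners were higher (0 at an unadjusted p under 0.05), and 0 relatives were higher (0 at an unadjusted p under 0.05) and 3 lower. For glmTreat, DESeq2 and the fits that left out a library, the share of all genes called is not given here. Their counts therefore cannot be set against a background. DESeq2 called 6 partners and 2 relatives higher. By the adjusted p-value alone 20 of the 79 were higher and 22 lower, 11 partners were higher and 7 lower, and 4 relatives were higher. With replicates 2 and 3 alone, chosen after seeing the data as was the other pair of replicates, 0 partners (12 at an unadjusted p under 0.05) and 1 relative were higher, and the median log2 fold change of the 79 was 0.11. Leaving out each library gave 7 to 9 higher and 9 to 14 lower of the 79, a median of −0.17 to 0.01, 0 to 6 partners higher and 4 to 5 lower, and 0 to 3 relatives higher and 5 to 6 lower. The replicate block, which takes the pairing into account, gave 9 higher and 12 lower and changed no other call than SOX4 and TBX20. DESeq2 called 8 higher and 12 lower. Library sizes alone moved the median of all genes by 0.08, and DESeq2 and median-ratio size factors by 0.03 and 0.02. Depth limits TBX4 and TBX21, with at most 15.2 and 12.5 normalized counts in any Control library.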
